A study of Homo sapiens with 12 samples.

Results

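Across the 12 libraries of the series, 10 genes of fatty acid sensing through PPAR receptors were followed by their RNA levels. They are 3 direct target genes of the PPAR family of fatty acid receptors (ANGPTL4, PDK4 and CPT1A), the receptors PPARA, PPARD and PPARG, their partner RXRA, the coactivator PPARGC1A, and SLC25A20 and ACADVL, which act beside CPT1A in mitochondrial fatty acid oxidation. They were chosen by name, 10 of 58735 genes measured, and 9 of the 10 were among the 11856 genes tested. Earlier results of these data were known at the choice, so their counts beside those of all genes are descriptions. The cells were HepaRG, a human hepatic cell line labelled wild type, in 4 groups of 3 libraries. PA+OA cells were given palmitate carrying deuterium, at 400 µM, with 200 µM of the monounsaturated oleate for 4 h. PA+BMS cells were kept for 24 h with 50 µM BMS-309403, a blocker of FABP4 (which carries fatty acids inside cells), and had 400 µM of the same palmitate for 4 h. PA cells had the 400 µM palmitate, a saturated fatty acid, alone for 4 h, and control cells were untreated. No group had oleate or BMS-309403 without palmitate, and the labels name no vehicle.

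PPARs are nuclear receptors that bind fatty acids and their derivatives, pair with a retinoid X receptor such as RXRA, and switch on genes for fatty acid uptake, storage and burning. In liver, PPARA is best known for the fasting response, PPARD is widely expressed, and PPARG is best known for fat storage. ANGPTL4, PDK4 and CPT1A are commonly used readouts of these receptors, whose activity itself was not measured here. ANGPTL4 is a secreted inhibitor of lipoprotein lipase, PDK4 is a kinase that shuts down pyruvate dehydrogenase and so spares glucose, and CPT1A makes the acylcarnitines that enter mitochondria.

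The reads behind the FPKM values (fragments per kilobase of gene, scaled to library size) summed to between 16059128 and 19971190 per library. None of 6 hepatocyte markers reached 1 FPKM in any library, and ALB, the albumin gene, had 0 reads in all 12. Of 4 bile duct markers, KRT7 was high at 139 to 917 FPKM, while KRT19 and EPCAM stayed near 0. Adipocyte markers were also under 1 FPKM, so the hepatic label was not borne out by hepatocyte genes. On the first principal component, with 54.4% of the variance, 2 libraries stood apart, PA+OA replicate 1 at a score of 54.6 and PA+BMS replicate 3 at -51.5. Its loadings rose with the GC content of genes (Spearman 0.68 across genes, and genes are no replicates). No label says that replicates came from separate cultures, so p-values measure the spread between these libraries, which may be technical. In bulk RNA, fewer cells of a type and less RNA per cell cannot be told apart.

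In control cells the genes spanned a wide range per gene length. ACADVL was the most abundant at 156 ± 16.2 FPKM (SD, n = 3). CPT1A at 28.5 ± 2.41 and PDK4 at 24.6 ± 2.26 FPKM overlapped each other. SLC25A20, PPARG and ANGPTL4 followed at 8.46 ± 0.926, 8.16 ± 0.547 and 7.33 ± 0.269 FPKM, and the replicates of neighbours in this order overlapped. PPARD at 5.50 ± 0.0921 and RXRA at 4.93 ± 0.253 FPKM did not overlap. PPARA at 0.912 ± 0.0972 and PPARGC1A at 0.900 ± 0.0408 FPKM were lowest and overlapped.

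**Figure D1:**
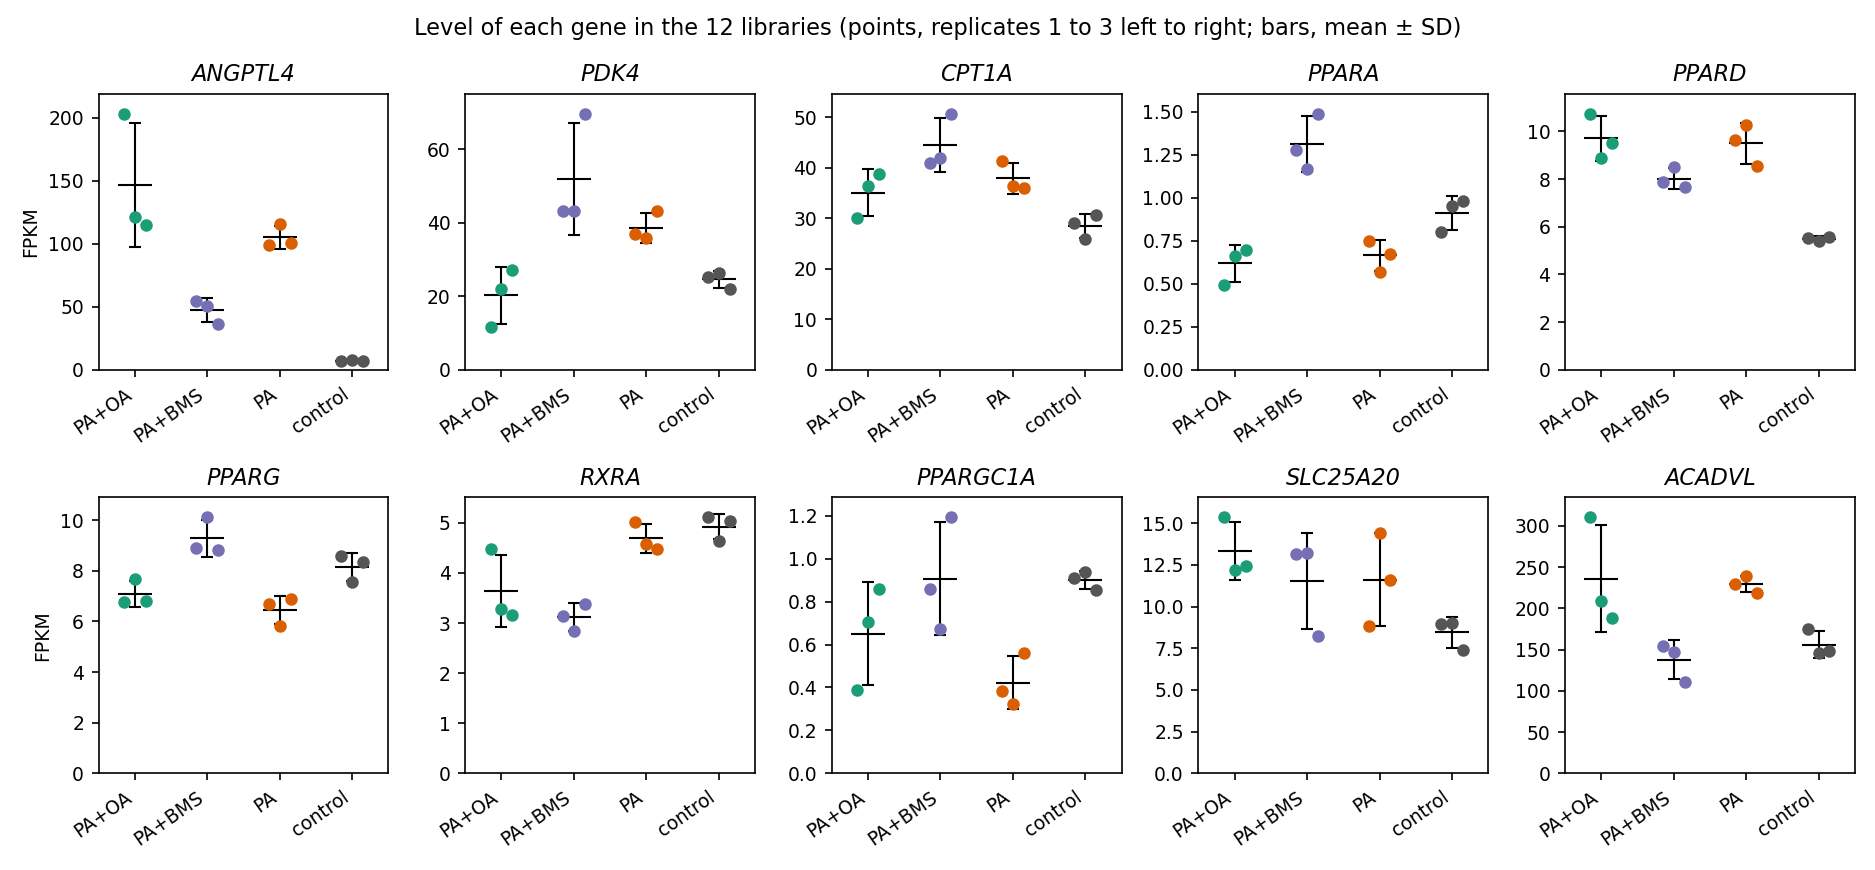
Level of each of the 10 genes in FPKM (vertical axes, each from 0) in the 4 groups (horizontal axes). Points are the 3 libraries of a group and bars are the mean ± SD. ANGPTL4 lies at 7.04 to 7.56 FPKM in control libraries and at 36.6 to 203 FPKM in every other library.

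ANGPTL4 (ENSG00000167772, chromosome 19, 8363289 to 8374373, plus strand) changed most. Its level was 203, 121 and 115 FPKM in PA+OA cells, 55.0, 51.0 and 36.6 FPKM in PA+BMS cells, 99.4, 115 and 101 FPKM in PA cells, and 7.39, 7.56 and 7.04 FPKM in control cells. The control libraries were far below all 9 others, and PA+BMS libraries lay between the control and PA libraries with no overlap on either side. PA+OA and PA libraries overlapped. Ranked by FPKM among the tested genes, ANGPTL4 stood at 296 to 365 from the top in PA+OA, 721 to 1039 in PA+BMS, 454 to 524 in PA and 4950 to 5261 in control libraries. Between 291 and 7641 reads stood behind each value. An antisense gene that overlaps ANGPTL4, RAB11B-AS1, reached at most 2.51 FPKM.

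PDK4 (ENSG00000004799, chromosome 7, 95583499 to 95596491, minus strand) had another order of groups. It stood at 11.8, 21.9 and 27.2 FPKM in PA+OA cells, 43.3, 43.1 and 69.7 FPKM in PA+BMS cells, 37.0, 35.8 and 43.3 FPKM in PA cells, and 25.2, 26.5 and 22.1 FPKM in control cells. PA+OA libraries were below all PA libraries and overlapped the control libraries, with replicate 1 lowest of all 12. PA+BMS libraries overlapped PA libraries, and both lay above all control libraries. PDK4 was the most abundant of the 4 pyruvate dehydrogenase kinases, with mean shares of their summed FPKM of 67.6% in PA+OA, 85.0% in PA+BMS, 81.1% in PA and 74.0% in control cells.

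CPT1A (ENSG00000110090, chromosome 11, 68754620 to 68844410, minus strand) moved over a narrower range. Its level was 30.0, 36.4 and 38.9 FPKM in PA+OA cells, 40.9, 42.0 and 50.6 FPKM in PA+BMS cells, 41.4, 36.4 and 35.9 FPKM in PA cells, and 29.0, 25.8 and 30.6 FPKM in control cells. PA+BMS and PA libraries were above all control libraries and overlapped each other, while PA+OA libraries overlapped both PA and control libraries. CPT1A made up over 99% of the summed FPKM of the CPT1 enzymes in every library, with mean shares of 99.6% in PA+OA, 99.8% in PA+BMS, 99.6% in PA and 99.7% in control cells.

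The 250 bases before the RefSeq transcription start of these 3 targets are shown because they are the genes by which receptor activity is usually read. Sequences are from RefSeq on GRCh38.p14, written 5′ to 3′ on the gene's strand, at chr19:8363905-8364154 (plus) for ANGPTL4, chr7:95596517-95596766 (minus) for PDK4 and chr11:68844278-68844527 (minus) for CPT1A. Capitals mark a TATA box, TATAAA.
ANGPTL4: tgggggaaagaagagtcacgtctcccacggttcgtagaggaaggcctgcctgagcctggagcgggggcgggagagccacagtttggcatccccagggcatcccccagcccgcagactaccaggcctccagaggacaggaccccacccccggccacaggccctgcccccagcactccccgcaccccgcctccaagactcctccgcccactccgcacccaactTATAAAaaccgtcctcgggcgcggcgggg
PDK4: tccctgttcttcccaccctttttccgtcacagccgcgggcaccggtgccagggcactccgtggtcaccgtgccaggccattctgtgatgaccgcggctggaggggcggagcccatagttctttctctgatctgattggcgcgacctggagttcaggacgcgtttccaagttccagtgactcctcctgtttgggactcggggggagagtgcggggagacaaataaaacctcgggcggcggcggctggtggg
CPT1A: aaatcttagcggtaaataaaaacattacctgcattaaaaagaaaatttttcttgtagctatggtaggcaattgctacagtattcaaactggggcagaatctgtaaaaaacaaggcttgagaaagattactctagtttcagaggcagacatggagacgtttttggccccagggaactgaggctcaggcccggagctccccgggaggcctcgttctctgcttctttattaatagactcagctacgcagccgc
In ANGPTL4 the first base of TATAAA is at -29 from the start, and no TATAAA was found in the PDK4 and CPT1A windows. The GC content of the windows was 68.8% for ANGPTL4, 62.8% for PDK4 and 44.4% for CPT1A. By its coordinates the ANGPTL4 window lies inside the measured gene, and the CPT1A window lies inside its gene in part. The measured spans of both genes begin upstream of the RefSeq starts used here, so these windows may not hold every promoter. Searched on both strands, TATAAA stood in 4 of 19 windows of the 10 genes (1 window per RefSeq start), which belong to 3 genes, and in 10.7% of 35116 RefSeq promoter windows of the same length. The consensus PPAR element, AGGTCANAGGTCA, stood in 0 of the 19 windows and in 0.0171% of all windows. Its 6-base unit AGGTCA, which also lies inside that element, stood in 3 of the 19 windows, all of PPARG (which has 6 starts), and in 12.1% of all windows. These are matches of letters only, and elements elsewhere in the genes were not searched.

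SLC25A20, the carrier that takes acylcarnitines across the inner mitochondrial membrane, had 15.3, 12.2 and 12.4 FPKM in PA+OA cells, 13.1, 13.2 and 8.21 FPKM in PA+BMS cells, 8.85, 14.4 and 11.6 FPKM in PA cells, and 8.97, 9.01 and 7.39 FPKM in control cells. Only PA+OA libraries were all above the control libraries. ACADVL, which starts the oxidation of very-long-chain acyl-CoA, had 310.3, 209 and 189 FPKM in PA+OA cells, 155, 147 and 111 FPKM in PA+BMS cells, 229.9, 239.7 and 219 FPKM in PA cells, and 175, 145 and 148 FPKM in control cells. PA+OA and PA libraries were above all control libraries, and PA+BMS libraries overlapped the control libraries and were below all PA libraries. ACADVL overlaps DLG4 and MIR324, which reached at most 1.62 and 3.63 FPKM.

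Among the receptors, PPARD had 10.7, 8.87 and 9.52 FPKM in PA+OA cells, 7.86, 8.51 and 7.69 FPKM in PA+BMS cells, 9.64, 10.3 and 8.55 FPKM in PA cells, and 5.51, 5.40 and 5.59 FPKM in control cells. All 9 palmitate-treated libraries were above the control libraries, whose replicates lay close together. PPARG had 6.78, 7.67 and 6.82 FPKM in PA+OA cells, 8.92, 10.1 and 8.81 FPKM in PA+BMS cells, 6.70, 5.84 and 6.87 FPKM in PA cells, and 8.59, 7.54 and 8.35 FPKM in control cells. It was lower in all PA libraries and higher in all PA+BMS libraries than in any control library. PPARA had 0.494, 0.662 and 0.698 FPKM in PA+OA cells, 1.28, 1.17 and 1.49 FPKM in PA+BMS cells, 0.751, 0.570 and 0.673 FPKM in PA cells, and 0.801, 0.954 and 0.981 FPKM in control cells. It reached 1 FPKM in the 3 PA+BMS libraries alone and passed the filter on low values through them, so a difference of that group had to follow.

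RXRA, which binds DNA together with each PPAR, had 4.48, 3.28 and 3.16 FPKM in PA+OA cells, 3.14, 2.84 and 3.38 FPKM in PA+BMS cells, 5.02, 4.58 and 4.48 FPKM in PA cells, and 5.11, 4.64 and 5.04 FPKM in control cells. PA+OA and PA+BMS libraries were below all control libraries, and PA libraries overlapped them. PPARGC1A, a coactivator of PPARs in energy metabolism, had 0.388, 0.706 and 0.859 FPKM in PA+OA cells, 0.857, 0.672 and 1.19 FPKM in PA+BMS cells, 0.385, 0.322 and 0.560 FPKM in PA cells, and 0.907, 0.936 and 0.856 FPKM in control cells. PA libraries were below all control and PA+BMS libraries. With 58 to 257 reads per library and 1 library at 1 FPKM, PPARGC1A failed the filter. In a fit without the filter its log2 change was -0.42 in PA against control (limma adjusted p = 0.112) and 0.42 in PA+BMS against PA (limma adjusted p = 0.0700). These are changes of FPKM + 1, which understate those of low genes. The ratios of mean FPKM were 0.47 and 2.15.

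The make-up of the PPAR family, in FPKM as deposited, differed between groups. PPARD held 55.7% ± 4.03 of the summed PPAR FPKM in PA+OA, 43.1% ± 0.409 in PA+BMS, 57.0% ± 4.27 in PA and 37.8% ± 0.985 in control cells (SD, n = 3 each). PPARG held 40.8% in PA+OA, 49.8% in PA+BMS, 39.0% in PA and 56.0% in control cells, and PPARA held 3.57% in PA+OA, 7.08% in PA+BMS, 4.00% in PA and 6.27% in control cells. PPARG was thus the most abundant PPAR in every control library and PPARD in every PA and PA+OA library. The GC content was 59.0% for PPARD and 44.0% for PPARG, and the shares were not corrected for a GC trend. With each library's trend on GC content and gene length removed, PPARG changed by -0.07 in PA against control (limma adjusted p = 0.642). PPARD then changed by 0.35 (limma adjusted p = 0.0165), against 0.69 before. RXRA was the minor retinoid X receptor, with 7.07% of the summed RXR FPKM in PA+OA, 10.8% in PA+BMS, 10.1% in PA and 17.0% in control cells, and RXRB made up nearly all of the rest. RXRB overlaps SLC39A7, which reached 103 FPKM, so shared reads make the RXR shares uncertain.

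**Figure D2:**
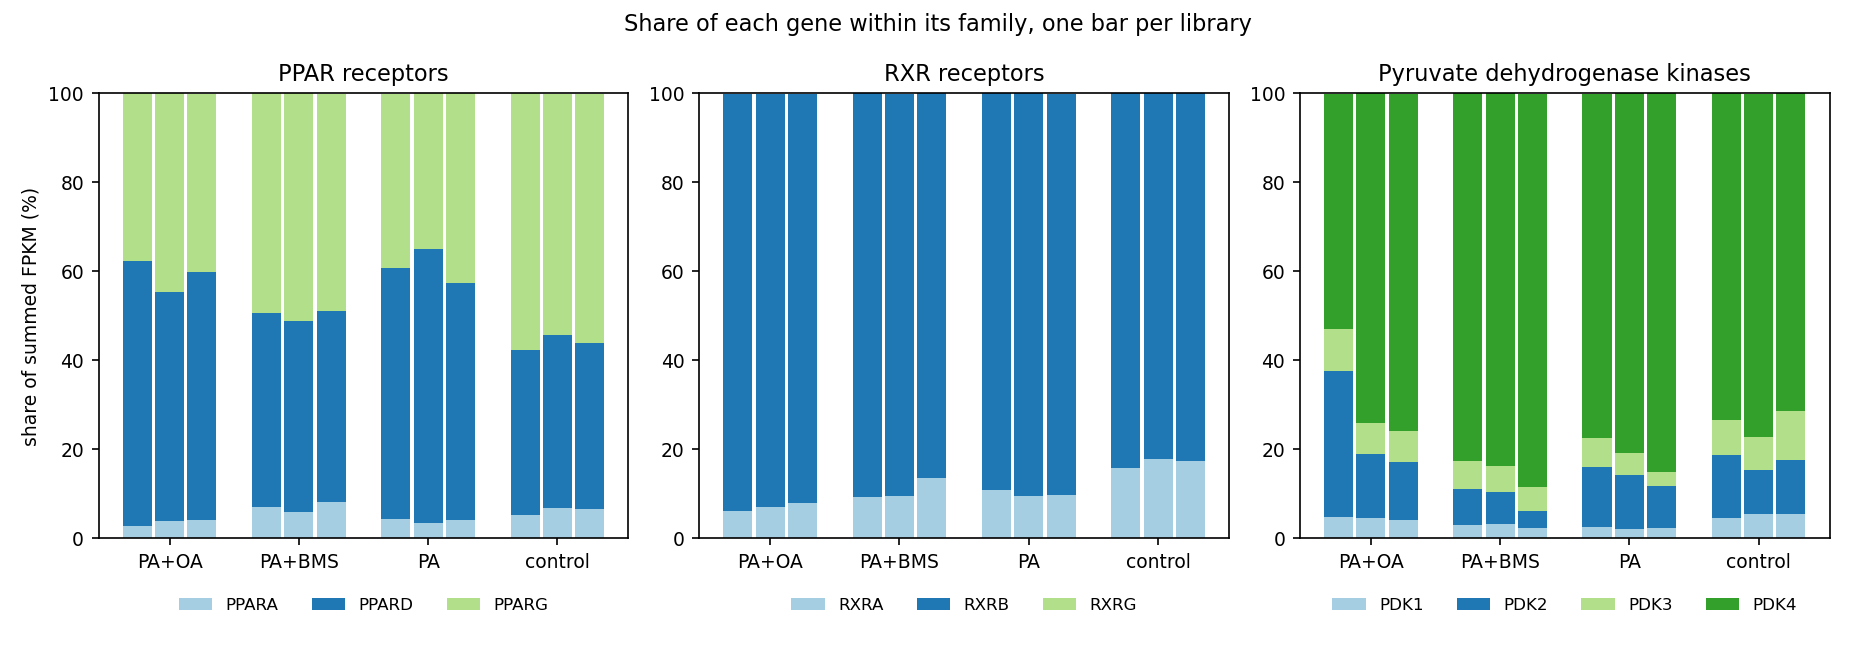
Share of each gene in the summed FPKM of its family (vertical axes, percent) in each of the 12 libraries (bars, 3 per group). The PPARD share averages 55.7% in PA+OA, 43.1% in PA+BMS, 57.0% in PA and 37.8% in control libraries, and the PDK4 share is lowest in PA+OA replicate 1 at 52.9%.

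Palmitate was first set against untreated cells. Of the 9 genes tested, 4 rose (ANGPTL4, PPARD, ACADVL and CPT1A) and 1 fell (PPARG), while 12.8% of all tested genes rose, 14.8% fell and 27.6% were called in all. The median log2 change of the 9 was 0.40, against 0.028 over all tested genes. Over all genes 1518 rose and 1754 fell, and with library totals set equal 846 rose and 2483 fell around a median log2 change of -0.11. Levels did not overlap in 8 of the 10 genes, against 60.6% of all genes tested. ANGPTL4 was 14.3-fold higher, at 105 ± 8.89 FPKM in PA cells and 7.33 ± 0.269 FPKM in control cells (SD, n = 3 each), a log2 change of 3.67 (SE 0.21, limma adjusted p = 2.76e-06). PPARD averaged 9.49 ± 0.874 FPKM in PA cells and 5.50 ± 0.0921 FPKM in control cells, a log2 change of 0.69 (SE 0.10, limma adjusted p = 0.00175). These 2 were called in each of 9 other treatments of the values and in each of 12 fits without 1 library, where ANGPTL4 ranged from 3.28 to 3.82 and PPARD from 0.35 to 0.77.

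Changes of the other genes in PA cells were smaller. CPT1A was 1.33-fold higher, with a log2 change of 0.40 (SE 0.13, limma adjusted p = 0.0409). ACADVL was 1.47-fold higher, with a log2 change of 0.56 (SE 0.19, limma adjusted p = 0.0450), and PPARG changed by -0.30 (SE 0.10, limma adjusted p = 0.0492). PDK4 was above every control library in all 3 PA libraries, with a log2 change of 0.63 (SE 0.26, limma adjusted p = 0.0807), and was not called. SLC25A20 changed by 0.40, PPARA by -0.20 and RXRA by -0.06, with limma adjusted p of 0.130, 0.183 and 0.703. For PPARA, a low gene, the ratio of mean FPKM was 0.73, and it was called with voom on reads (-0.64, limma adjusted p = 0.0438). With each library's trend on GC content and gene length removed, ACADVL (0.23, limma adjusted p = 0.168) and PPARG (-0.07, 0.642) lost their calls and PDK4 (0.99, 0.00860) and RXRA (-0.31, 0.0164) gained one. The CPT1A call held without PA+OA 1, PA+OA 3 or PA+BMS 3 and was lost without any of the other 9 libraries (limma adjusted p up to 0.156), the ACADVL call held without those 3 or control 1 and was lost without any of the other 8 (up to 0.146), and the PPARG call held only without PA+OA 1 or PA+BMS 3 (up to 0.179). PDK4 passed without PA+OA 1 (limma adjusted p = 0.0153) and with only the 2 groups fitted (0.00393). Summed bile duct markers (1 of 4 reached 1 FPKM, KRT7) were 571 to 669 FPKM in PA and 477 to 564 FPKM in control cells. Endothelial sums (1 of 3 reached 1 FPKM, CDH5) were 1.06 to 1.35 FPKM in PA and 1.36 to 1.82 FPKM in control cells. The part of both in these changes was not tested. CPT1A and ACADVL also lost their calls without a filter (limma adjusted p of 0.0847 and 0.125), with library totals set equal (0.280 and 0.0756) and with voom on reads (0.275 and 0.0645), CPT1A under median-of-ratios scaling (0.0549), and PPARG without a filter (0.0767).

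**Figure D3:**
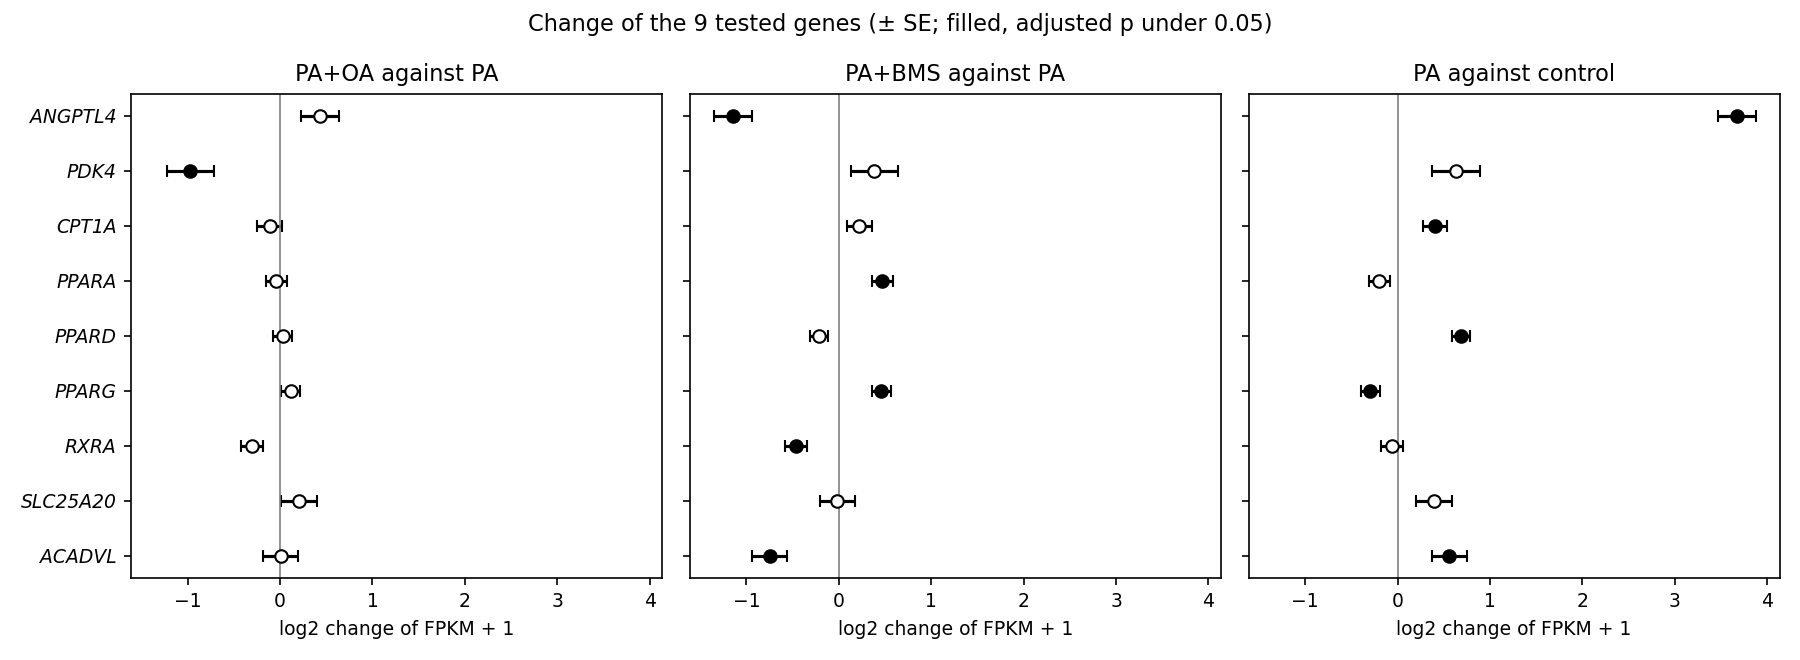
Log2 change of FPKM + 1 (horizontal axes) of the 9 tested genes in PA+OA against PA, PA+BMS against PA and PA against control. Points are estimates, bars are ± SE and filled points have a limma adjusted p under 0.05. ANGPTL4 stands at 3.67 in PA against control and at -1.15 in PA+BMS against PA, and only PDK4, at -0.97, is filled in PA+OA against PA.

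Wider lists of the pathway are set against the 12.8% of all tested genes that rose and the 14.8% that fell with palmitate. Of 20 tested genes on a list of other PPAR targets, 3 rose and 3 fell (median log2 change 0.078). FGF21, a hormone released by the liver in fasting, was at 2.82, 3.16 and 3.43 FPKM in PA cells and at 1.41, 0.129 and 0.137 FPKM in control cells, with replicate 1 standing above the other controls. Its log2 change was 1.50 (SE 0.27, limma adjusted p = 0.00452) and 1.87 without control replicate 1. ACADM, the medium-chain relative of ACADVL, fell to 3.60 ± 0.143 FPKM in PA cells, against 5.97 ± 0.274 FPKM in control cells (SD, n = 3 each; log2 change -0.60, limma adjusted p = 0.00551), though it overlaps RABGGTB, which reached 9.24 FPKM. Of 7 tested genes of the carnitine shuttle and malonyl-CoA control, 3 rose and 0 fell (median 0.23). Of 11 genes for pyruvate dehydrogenase and its regulators, 0 rose and 4 fell (median -0.24). Of 18 receptor partners and coregulators, 3 rose and 2 fell (median -0.06), of 5 genes of lipoprotein lipase control 0 rose and 2 fell (median -0.07), and of 8 acyl-CoA dehydrogenases 3 rose and 2 fell (median 0.29). PLIN2, FABP1, FABP4 and CD36, often read as PPAR targets, stayed under 1 FPKM in all libraries and were not tested.

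Oleate given with palmitate was set against palmitate alone. PDK4 was the only one of the 9 tested genes that passed the test, and it fell, while 3.91% of all tested genes fell, 4.01% rose and 7.91% were called in all. The median log2 change of the 9 was 0.0078, against -0.0024 over all tested genes. Levels did not overlap in 2 of 10 genes (PDK4 and RXRA), against 24.9% of all genes tested. The RXRA ranges nearly touched, at 4.47572 FPKM in PA+OA replicate 1 and 4.47605 FPKM in PA replicate 3. PDK4 averaged 20.3 ± 7.82 FPKM in PA+OA cells and 38.7 ± 4.03 FPKM in PA cells (SD, n = 3 each), a log2 change of -0.97 (SE 0.26, limma adjusted p = 0.0389). ANGPTL4 averaged 146 ± 49.2 FPKM in PA+OA cells and 105 ± 8.89 FPKM in PA cells, and its log2 change of 0.43 (SE 0.21, limma adjusted p = 0.265) was not called. RXRA changed by -0.30 (limma adjusted p = 0.145) and the other 6 by -0.11 to 0.20, none of them called.

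Leaving out a control or PA+BMS library could change only the p-value of PDK4 here, not its log2 change. The fall of PDK4 kept its direction under every alternative, with log2 changes from -1.21 to -0.64. It was -0.64 without PA+OA replicate 1 (limma adjusted p = 0.0472), the library that stood apart, and it also passed without PA+OA 3, PA+BMS 1 or PA+BMS 3. It no longer passed without any one of the other 8 libraries, which are the 3 control and 3 PA libraries, PA+OA 2 and PA+BMS 2 (limma adjusted p of 0.0510 to 0.128), nor without a filter (0.118), under median-of-ratios scaling (0.0526), with only the 2 groups fitted (0.0961), with library totals set equal (0.0981) or with voom on reads (0.0802). RXRA passed without PA+OA replicate 1, with a log2 change of -0.43 (limma adjusted p = 0.0120), and ANGPTL4 passed with the GC and length trend removed, with 0.44 (0.0125), but changed by 0.17 without PA+OA replicate 1. The summed endothelial markers (1 of 3 reached 1 FPKM, CDH5) were 0.287 to 0.454 FPKM in PA+OA and 1.06 to 1.35 FPKM in PA cells. Their part in these changes was not tested.

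List counts in this comparison are set against the 7.91% of all tested genes that were called. FGF21 rose to 18.0, 12.7 and 9.71 FPKM in PA+OA cells, against 2.82, 3.16 and 3.43 FPKM in PA cells (log2 change 1.77, SE 0.27, limma adjusted p = 0.00222), and was the only one of 20 tested PPAR targets called. Its call held without each library in turn and under all 9 other alternatives. Of the pyruvate dehydrogenase genes, 1 of 11 fell, PDP2, a phosphatase that reactivates pyruvate dehydrogenase, with a log2 change of -0.68 (limma adjusted p = 0.0236). The PDP2 call was lost without any 1 of the 3 PA libraries (up to 0.0865). It held in 7 of the 9 other alternatives (limma adjusted p up to 0.0660). Of the lipoprotein lipase list 0 of 5 rose and 2 fell, and of the coregulators, carnitine shuttle genes and acyl-CoA dehydrogenases none of 18, 7 and 8 passed.

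BMS-309403 with palmitate was set against palmitate alone. FABP4, the named target of BMS-309403, reached at most 0.0864 FPKM in any library, and the route of the changes below was not tested. Of the 9 tested genes, 3 fell (ANGPTL4, ACADVL and RXRA) and 2 rose (PPARG and PPARA, of which PPARA passed the filter through its PA+BMS values), in a comparison where 54.5% of all tested genes were called, 29.4% falling and 25.2% rising. Levels did not overlap in 7 of 10 genes, against 69.5% of all genes tested. PPARA is among these 7 for the same reason, and so is PPARGC1A, which failed the filter. Both shares are near the background. The median log2 change was -0.015 for the 9 and -0.044 over all tested genes. Over all genes 2982 rose and 3481 fell, and with library totals set equal 4127 rose and 1774 fell around a median log2 change of 0.16. ANGPTL4 averaged 47.5 ± 9.64 FPKM in PA+BMS cells and 105 ± 8.89 FPKM in PA cells (SD, n = 3 each), a log2 change of -1.15 (SE 0.21, limma adjusted p = 0.00366). It remained 6.48-fold above control cells (log2 change 2.52, limma adjusted p = 4.59e-05). ACADVL averaged 138 ± 23.6 FPKM in PA+BMS cells and 230 ± 10.2 FPKM in PA cells, a log2 change of -0.75 (SE 0.19, limma adjusted p = 0.00945).

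The receptors moved in different directions with BMS-309403. RXRA changed by -0.47 (SE 0.12, limma adjusted p = 0.00925), PPARG by 0.46 (SE 0.10, limma adjusted p = 0.00652) and PPARA, which entered the test through this group, by 0.47 (SE 0.11, limma adjusted p = 0.00834). The log2 of FPKM + 1 understates the change of a gene as low as PPARA. Ratios of mean FPKM were 1.43 for PPARG and 1.97 for PPARA. With a pseudocount of 0.1 their log2 changes were 0.51 and 0.88. PPARD changed by -0.22 (limma adjusted p = 0.0857), with all 3 PA+BMS libraries below the PA libraries, and was not called. CPT1A changed by 0.22 and PDK4 by 0.39, with limma adjusted p of 0.160 and 0.215, and SLC25A20 by -0.015 (0.954). With library totals set equal, PPARD and SLC25A20 changed by 0.025 and 0.23 and were not called, while CPT1A changed by 0.48 and was called (limma adjusted p = 0.0228), as it was with voom on reads (0.50, 0.0194). With the GC and length trend removed, ANGPTL4 changed by -0.56 (limma adjusted p = 0.00631) and ACADVL by -0.34 (0.0485), while PPARG (0.14, 0.311), RXRA (-0.15, 0.158) and PPARA (0.21, 0.135) were no longer called. The GC content of the genes was 63.3% for ANGPTL4, 60.6% for RXRA and 58.8% for ACADVL, which fell, and 47.6% for PPARA and 44.0% for PPARG, which rose. The calls of ANGPTL4, ACADVL, RXRA and PPARG held in each of 12 fits without 1 library. The summed bile duct markers (1 of 4 reached 1 FPKM, KRT7) were 140 to 185 FPKM in PA+BMS and 571 to 669 FPKM in PA cells. Sums were also lower for stellate markers (2 of 4 reached 1 FPKM, LRAT had 0 reads) at 2.34 to 2.79 FPKM in PA+BMS and 4.34 to 5.31 FPKM in PA cells, macrophage markers (1 of 3, CD163 had 0 reads) at 0.528 to 0.607 FPKM in PA+BMS and 1.63 to 2.10 FPKM in PA cells, and endothelial markers (1 of 3) at 0.343 to 0.459 FPKM in PA+BMS and 1.06 to 1.35 FPKM in PA cells. The part of these in the changes was not tested.

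List counts in this comparison are set against the 54.5% of all tested genes that were called, 25.2% rising and 29.4% falling. No list count, here or in the other comparisons, was taken again with the GC and length trend removed. PPARG, RXRA and PPARA lost their calls here when that trend was removed. Of 18 receptor partners and coregulators, 9 rose and 4 fell (median log2 change 0.52). PPRC1, a relative of PPARGC1A, averaged 13.8 ± 0.512 FPKM in PA+BMS cells and 21.8 ± 1.25 FPKM in PA cells (log2 change -0.62, limma adjusted p = 0.00251), while LPIN1, which acts with PPARA and PPARGC1A in mouse liver, averaged 6.52 ± 0.826 FPKM in PA+BMS cells and 3.09 ± 0.134 FPKM in PA cells (0.87, 0.00528). Of 11 pyruvate dehydrogenase genes, 6 rose and 1 fell (median 0.35), and PDP1, the phosphatase that opposes PDK4, averaged 7.89 ± 2.15 FPKM in PA+BMS and 3.21 ± 0.302 FPKM in PA cells (log2 change 1.05, limma adjusted p = 0.00240). Of 20 PPAR targets, 5 rose and 5 fell (median -0.0044). ACSL5, an acyl-CoA synthetase, averaged 3.23 ± 0.470 FPKM in PA+BMS and 6.79 ± 0.666 FPKM in PA cells (log2 change -0.88, limma adjusted p = 0.00110), though it overlaps ZDHHC6, which reached 14.2 FPKM. CAT, the peroxisomal catalase, averaged 30.9 ± 0.853 FPKM in PA+BMS and 18.0 ± 1.49 FPKM in PA cells (0.75, limma adjusted p = 0.00180). Of 7 carnitine shuttle genes 1 rose and 0 fell (median 0.23), of 8 acyl-CoA dehydrogenases 2 rose and 4 fell (median -0.22), and of 5 lipoprotein lipase genes 2 rose and 1 fell (median 0.31).

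**Figure D4:**
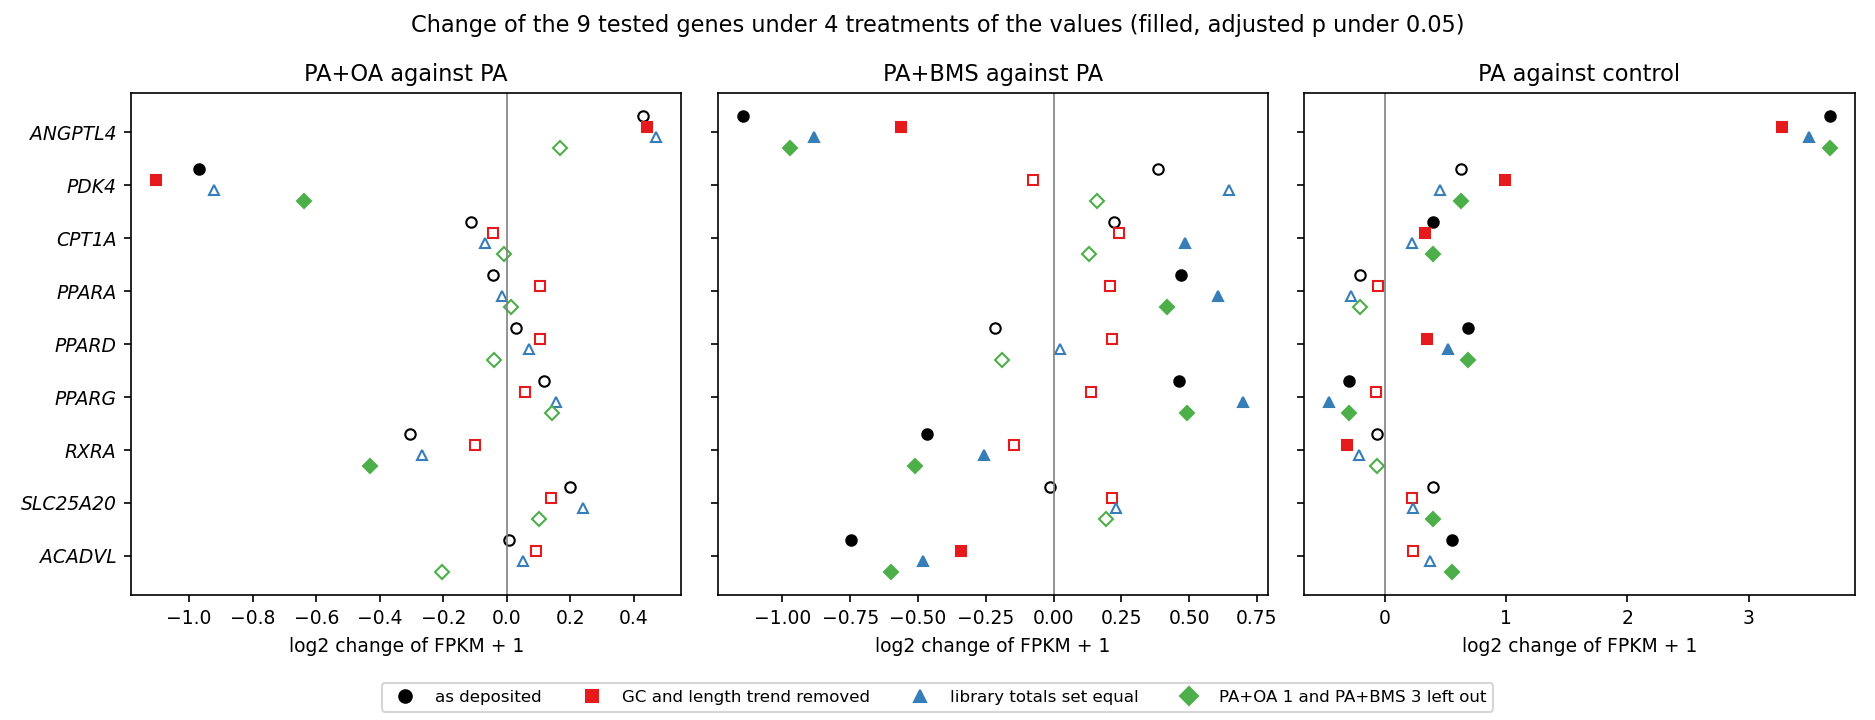
Log2 change of FPKM + 1 (horizontal axes, a different range in each panel) of the 9 tested genes under 4 treatments of the values, in 3 comparisons. Filled symbols have a limma adjusted p under 0.05. In PA+BMS against PA, ANGPTL4 and ACADVL are filled under all 4, while PPARG, RXRA and PPARA are open once the GC and length trend is removed.

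Both combined treatments were also set against untreated cells, using the same control libraries as the palmitate comparison. In PA+OA cells 4 of the 9 tested genes rose and 1 fell, against 17.5% and 18.8% of all tested genes and 36.3% called in all. Over all genes 2075 rose and 2232 fell, and with library totals set equal 1584 rose and 2760 fell around a median log2 change of -0.093. ANGPTL4 changed by 4.10 (SE 0.21, limma adjusted p = 1.90e-07), PPARD by 0.72 (0.000343), SLC25A20 by 0.60 (0.0320), ACADVL by 0.57 (0.0345) and RXRA by -0.36 (0.0301). CPT1A changed by 0.29 (limma adjusted p = 0.101) and PDK4 by -0.34 (0.310), and neither was called. CPT1A passed with the GC and length trend removed (0.29, limma adjusted p = 0.0450), without PA+OA 1 (0.39, 0.0296) and without both libraries that stood apart (0.39, 0.00904). The median log2 change of the 9 was 0.29, against 0.011 over all tested genes, and levels did not overlap in 6 of 10 genes, against 49.7% of all genes tested. The calls of SLC25A20 and ACADVL were lost without control 2, control 3 or PA+OA 1, where ACADVL changed by 0.35 (limma adjusted p = 0.0985), and that of RXRA without any 1 control library, PA+OA 2 or PA+OA 3 (up to 0.0890). Without a filter all 3 missed the threshold (limma adjusted p of 0.0914, 0.0906 and 0.0582), and with only the 2 groups fitted ACADVL (0.0804) and RXRA (0.0851) did. SLC25A20 also missed it with the GC and length trend removed (0.36, limma adjusted p = 0.0569), with voom (0.0949) and with library totals set equal (0.0835). Summed endothelial markers (1 of 3 reached 1 FPKM, CDH5) were 0.287 to 0.454 FPKM in PA+OA and 1.36 to 1.82 FPKM in control cells. Their part in these changes was not tested.

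In PA+BMS cells, set against untreated cells, 4 of 9 rose and 1 fell, while 4.77% of all tested genes rose, 6.25% fell and 11.0% were called in all. ANGPTL4 rose by 2.52, PDK4 by 1.02 (SE 0.26, limma adjusted p = 0.0261), CPT1A by 0.62 (0.0107) and PPARD by 0.47 (0.0121), all on the log2 scale. RXRA changed by -0.53 (limma adjusted p = 0.0140). PPARA, PPARG, SLC25A20 and ACADVL changed by 0.27, 0.17, 0.38 and -0.19 and were not called. For PPARA, a low gene, the ratio of mean FPKM was 1.44. The median log2 change of the 9 was 0.38, against -0.018 over all tested genes, and levels did not overlap in 7 of 10 genes, against 35.9% of all genes tested. PPARA is among these 7, and its lack of overlap had to follow, since it passed the filter through its PA+BMS values alone. The PDK4 call was lost without any 1 control library or PA+BMS 3 (log2 changes of 0.79 to 1.07, limma adjusted p up to 0.0959) and without a filter (0.0904), that of CPT1A without control 2 (0.0510), that of PPARD without PA+BMS 2 (0.0557) and that of RXRA without control 1, control 3 or PA+BMS 2 (up to 0.0608). Summed bile duct markers (1 of 4 reached 1 FPKM, KRT7) were 140 to 185 FPKM in PA+BMS and 477 to 564 FPKM in control cells. Endothelial sums (1 of 3 reached 1 FPKM, CDH5) were 0.343 to 0.459 FPKM in PA+BMS and 1.36 to 1.82 FPKM in control cells. Stellate sums were 2.34 to 2.79 FPKM in PA+BMS and 4.6 to 4.91 FPKM in control cells, macrophage sums 0.528 to 0.607 FPKM in PA+BMS and 1.51 to 2.19 FPKM in control cells, and the part of all 4 in these changes was not tested.

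List counts against untreated cells are given as rose and fell. In PA+OA cells, where 36.3% of all tested genes were called, they were 2 and 4 of 20 PPAR targets, 4 and 1 of 7 carnitine shuttle genes, 0 and 3 of 11 pyruvate dehydrogenase genes, 2 and 3 of 18 coregulators, 0 and 2 of 5 lipoprotein lipase genes, and 2 and 1 of 8 acyl-CoA dehydrogenases. In PA+BMS cells, where 11.0% of all tested genes were called, they were 3 and 1 of the PPAR targets, 1 and 0 of the carnitine shuttle genes, 1 and 0 of the pyruvate dehydrogenase genes, 1 and 1 of the coregulators, 1 and 1 of the lipoprotein lipase genes, and 1 and 0 of the acyl-CoA dehydrogenases. FGF21 averaged 13.5 ± 4.20 FPKM in PA+OA, 3.12 ± 0.360 FPKM in PA+BMS and 0.557 ± 0.735 FPKM in control cells (SD, n = 3 each), with log2 changes from control of 3.27 (limma adjusted p = 8.42e-06) and 1.50 (limma adjusted p = 0.00453). LPIN1 rose in PA+BMS cells by 1.24 on the log2 scale (limma adjusted p = 0.00130).

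Across the 12 libraries the tested gene with the pattern most like that of ANGPTL4 was PPARD (Pearson 0.979 on log2(FPKM + 1)). Next came PITHD1 (0.976), JOSD1 (0.975), MICALL2 (0.974) and DCAKD (0.974). By Spearman rank correlation PPARD (0.895) stood at 295 and MICALL2 (0.986) stood first. The 3 control libraries lie far from the other 9, so the coefficients rest largely on that step. PDK4 was most like ANKRD11 (0.984), GALNT10 (0.950) and CHKA (0.946), and CPT1A most like SNX29 (0.986), GLE1 (0.956) and SAP130 (0.955). All these values share libraries, scaling and GC trend, and they are given as descriptions without a test.

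**Figure D5:**
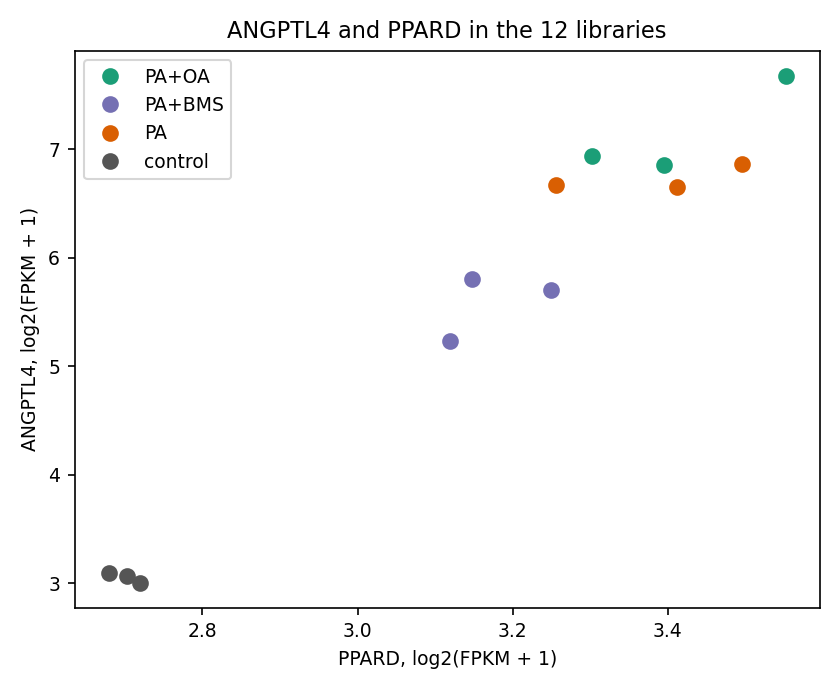
Level of ANGPTL4 (vertical axis) against PPARD (horizontal axis), both as log2(FPKM + 1), with 1 point per library. The 3 control libraries sit at the lower left, the 3 PA+BMS libraries between, and the PA and PA+OA libraries overlap at the upper right.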

How the data were processed

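Poly-T selected RNA of 12 HepaRG libraries was sequenced as paired reads, per the labels' protocols. The authors deposited FPKM for 58735 genes, made in steps that are not stated. Tools listed in the submitters' processing notes, with no role, are featureCounts 1.5.0-p3, HISAT2 2.0.5 and CASAVA. Build, annotation and strand setting: not given in the sources used here. All 58735 gene identifiers, symbols, starts and ends equalled GENCODE 29 on GRCh38, so coordinates are on that build. Without a known strand setting, reads of a gene and of an overlapping gene cannot be told apart. Of the 10 genes, 6 overlap another gene and 2 overlap one that reached 1 FPKM.

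Every FPKM value was a whole multiple of what 1 read is worth (100% of values, tolerance 0.001), so whole reads were recovered, in totals of 16059128 to 19971190. The authors' FPKM rest on library sizes 0.827 to 1.14 times these totals, for a reason no source gives. Read numbers given for a gene describe its counting error only.

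From the deposited FPKM, log2(FPKM + 1) of the 11856 genes with at least 1 FPKM in at least 3 libraries was tested with limma 3.58.1 in R 4.3.3. The fit had one coefficient per group over 12 libraries, which leaves 8 residual degrees of freedom, and used eBayes with a trend and two-sided p. Adjustment was by Benjamini-Hochberg over all tested genes, separately for 5 comparisons, with a threshold of 0.05. Rose, fell and called mean an adjusted p under 0.05. Fold changes on this scale understate the change of low genes. Folds without a log are ratios of mean FPKM. Counts of genes without overlap are over all 10 genes, PPARGC1A included, while the shares beside them are over tested genes only.

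The genes and lists were chosen with earlier results of these data known. The 10 genes are named throughout, up to 4 called genes per list and comparison were named by smallest p, not all of them are printed, and the genes most like ANGPTL4, PDK4 and CPT1A are the 5, 3 and 3 with the highest Pearson correlation. Genes under the filter that are named were picked with their values in view. Alternatives were a pseudocount of 0.1, no filter, median-of-ratios scaling, only the 2 groups compared, a replicate block, removal of each library's trend on GC content and length (natural splines, 5 degrees of freedom each), voom on whole reads, both libraries that stood apart left out, each library left out, and, added after seeing the data, library totals set equal. The procedure was tested on simulated reads with the same dispersion for every gene. They had no GC trend and no library standing apart, so that test does not cover calls in data with both. No replicate pair of 12 agreed within sampling noise (chi-square per gene from 3.46 to 67.6). Same-numbered samples correlated over 0.1 in all 3 pairs of PA+OA and control (0.488, 0.269 and 0.156, from the deviations and not from the labels) and in no other pair of groups compared. Promoter windows are from RefSeq, GRCh38.p14. Plots used matplotlib 3.10.9 (Python 3.11.15).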

Additional observations from a re-analysis of the deposited data

How the results depend on the processing

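Leaving out 1 library at a time kept direction and call in 474 of 540 changes of the tested genes. It ended 55 calls, added 4 and turned 7 signs, all of uncalled changes. The other 9 alternatives kept 348 of 405, ended 27, added 16 and turned 14. A library of neither group compared cannot alter a log2 change when left out. Dropping the filter, fitting only the 2 groups or adding a replicate block cannot either. In those fits only the call could change, so they hold no test of direction. With 58 to 390 reads per library, PPARA and PPARGC1A were the least precisely measured of the 10 genes.

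In PA against control, 3272 genes and 5 of the 9 were called. The values were 1599 and 2 without a filter, 5906 genes with only the 2 groups compared, 1912 genes with the GC and length trend removed, 3 of the 9 with library totals set equal and 6723 genes without the libraries that stood apart, and 795 to 5336 and 2 to 6 when 1 library was left out. In PA+OA against PA, 938 and 1 were called. None of the 9 passed without a filter, with median-of-ratios scaling, with only the 2 groups (464 genes), with voom or with library totals set equal (0 each), 1561 and 2 passed after the GC and length trend was taken out, and 3016 and 2 without the libraries that stood apart. Leaving out 1 library gave 473 to 1946 and 0 to 2. In PA+BMS against PA, 6463 and 5 became 2686 and 2 once the GC and length trend was taken out, and 3687 to 7414 and 5 to 6 with 1 library out. In PA+OA against control, 4307 and 5 became 2 of the 9 without a filter and 3 with only the 2 groups, and 2486 to 5029 and 2 to 5 with 1 library out. In PA+BMS against control, 1306 and 5 became 2268 genes with the GC and length trend removed and 2159 without the libraries that stood apart, and 654 to 2330 and 3 to 5 with 1 library out. The cause of these shifts was not tested.

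Signs turned as follows. In PA+OA against PA, PPARA was 0.11 with the GC and length trend removed and 0.015 without the libraries that stood apart, where ACADVL was -0.21 and PPARD -0.039. With 1 library out, ACADVL ranged from -0.21 to 0.15, PPARD from -0.039 to 0.085 and PPARA from -0.083 to 0.015. In PA+BMS against PA, SLC25A20 was 0.035 with median-of-ratios scaling, 0.22 with the GC and length trend removed, 0.26 with voom, 0.23 with library totals set equal and 0.19 without the libraries that stood apart, and -0.18 to 0.19 with 1 library out. Without the GC and length trend PDK4 was -0.076 and PPARD 0.22, and PPARD was 0.029 with voom and 0.025 with library totals set equal. In PA+OA against control, PPARA was 0.055 with the GC and length trend removed. With that trend removed, the list genes PDK1 and ACADSB turned to 0.12 and 0.043 in PA against control, and PDK1 to -0.27 in PA+BMS against PA.

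Of 18 correlations between same-numbered deviations 9 exceeded 0.1 (-0.278 to 0.563), and 17 of 36 matched best with their own number. Between PA+OA and control all 3 same-numbered correlations exceeded 0.1, and there the block changed no call of the 9. With a replicate block, the 5 comparisons, in the order used above, had 4652, 1139, 7083, 5242 and 1704 called genes, and 6, 1, 5, 5 and 5 of the 9.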
